A study of Mus musculus with 3 samples.

Results

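Troponin and tropomyosin genes were examined in mouse heart tubes at embryonic day 9.5. The 9 genes, chosen by symbol, were Tnnt2 and Tnnt1 (troponin T), Tnni1 and Tnni3 (troponin I), Tnnc1 (troponin C) and Tpm1, Tpm2, Tpm3 and Tpm4 (tropomyosin). All 9 were found among the 23337 genes of the count files. The tested libraries came from Sox7-null (-/-) heart tubes (Sox7-null 1 and Sox7-null 2), and the single library set against them came from a wild-type heart tube. Sox7 is a SoxF-family transcription factor gene, and the study set out to find transcripts of the developing heart that depend on it. The labels give no strain and do not describe the null allele beyond its name. They do not say whether a tube was 1 embryo or a pool. With a single wild-type library, p-values rest only on the spread between the Sox7-null libraries and on variance shared across genes. They hold no measure of how wild-type tubes vary.

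Troponin and tropomyosin make the contraction of striated muscle depend on calcium. Tropomyosin lies along the actin filament and covers the sites that myosin binds. Troponin T ties the troponin complex to tropomyosin, troponin I inhibits the actin and myosin interaction, and troponin C binds calcium and releases that inhibition. In the embryonic heart the slow skeletal troponin I gene Tnni1 is active together with the cardiac gene Tnni3, which replaces it after birth. Tnnt2 and Tpm1 are the main cardiac genes of their families, Tnnt1 encodes the slow skeletal troponin T, and Tpm3 and Tpm4 are also made in nonmuscle cells. Counts were per gene, so splice forms of 1 gene were not separated, and isoform here means a paralogous gene.

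The Sox7-null libraries held 13139823 and 13618338 reads within genes, and the wild-type library 13789388. Sox7 itself had 2 and 7 reads in the Sox7-null libraries, against 222 in the wild type, which fits the labels. Cardiomyocyte markers outside the thin filament were abundant in every library, with summed levels of 11000 and 11390 CPM in Sox7-null tubes and 10400 CPM in the wild type (CPM is a gene's reads scaled to library size, with the trimmed mean of M values, TMM). The atrial light chain gene Myl7 gave 5095 and 6042 CPM of these sums in Sox7-null tubes and 6675 CPM in the wild type. Of the 12 markers 5 rose (Myh6, Ryr2, Actn2, Hspb7 and Myocd) and 0 fell in the edgeR test described next, with a median log2 fold change of 0.52 beside the Tnnt2 and Tpm1 values given here, and their part in those values was not tested. The protocol text names retinal cultures, but the retina markers Six6, Crx, Rcvrn and Six3 had 0 reads in all libraries. Of 14 skeletal muscle markers, Myod1, Myf5, Myf6, Myog, Pax7 and Myh8 had 0 reads in all libraries. Among the 6 that edgeR tested, Tnni2 rose, Chrna1 fell, and Ckm, Tnnc2, Actn3 and Tnnt3 did not pass. Chrna1 had 8 and 8 reads in Sox7-null tubes, against 55 in the wild type (edgeR log2 estimate -2.80, adjusted p = 0.00484). Across all genes, the change moved with transcript length: the median log2 fold change of Sox7-null over wild type was -0.33 in the shortest 25% of tested genes, up to 2020 bases, and 0.27 in the longest, from 4699 bases. Fold changes are therefore also given after a fitted trend on transcript length and GC content was taken out (trend-removed values). By these, 4 of the 12 cardiomyocyte markers rose and 0 fell, with a median of 0.29. Myh6 no longer passed, at 0.09 with an edgeR adjusted p of 0.787.

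The 9 genes did not move as a block. Tnnt2 and Tpm1 rose in Sox7-null tubes and Tnni3 fell, at a Benjamini-Hochberg adjusted p under 0.05 in edgeR's quasi-likelihood test over 13334 genes, and 6 genes did not pass. Among all tested genes, 11.3% were higher and 10.2% lower by the same rule, so 2 and 1 of 9 genes are too few to set the families apart from that background. The median log2 fold change of the 9 genes was -0.20, beside 0.014 for all tested genes. Both Sox7-null libraries lay above the wild type for Tnnt2, Tnnt1, Tpm1 and Tpm2 and below it for the other 5 genes, and the same held for 43.1% and 43.0% of all tested genes. The genes together held 0.917% and 0.987% of gene reads in the Sox7-null libraries and 0.818% in the wild type. In bulk tissue, fewer cells of a type and less RNA per cell cannot be told apart.

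**Figure D1:**
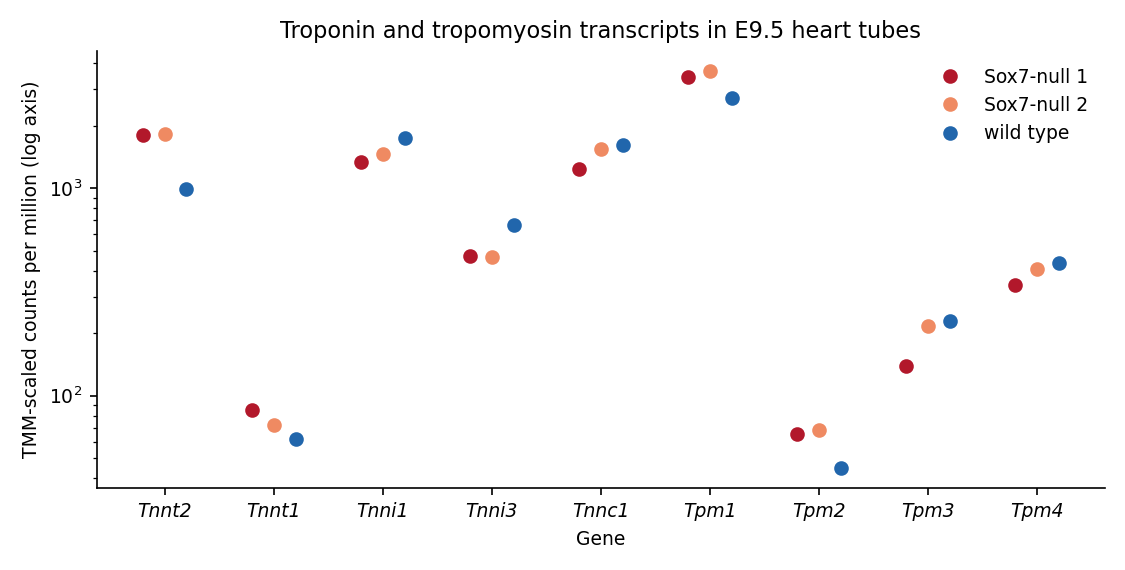
TMM-scaled CPM of each gene (log axis) in the 2 Sox7-null libraries (red and orange) and the wild-type library (blue), 1 point a library. Tnnt2 at 1814 and 1817 CPM in Sox7-null tubes stands well above the wild-type point at 989 CPM, and Tnni1 and Tnni3 stand below theirs.

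The upstream sequences of 4 genes are shown because these genes encode the main cardiac partners of the thin filament and had estimates in different directions. Each run holds the 150 bases before the RefSeq transcription start (build GRCm38.p6, 5′ to 3′ on the gene's strand), for Tnnt2 at chr1:135836184-135836333 on the plus strand (the first of 2 annotated starts), Tpm1 at chr9:67049214-67049363 on the minus strand, Tnnc1 at chr14:31208162-31208311 on the plus strand and Tnni3 at chr7:4522529-4522678 on the minus strand. Capitals mark the letters CATTCC or their reverse complement GGAATG, the MCAT motif known from muscle promoters.
Tnnt2: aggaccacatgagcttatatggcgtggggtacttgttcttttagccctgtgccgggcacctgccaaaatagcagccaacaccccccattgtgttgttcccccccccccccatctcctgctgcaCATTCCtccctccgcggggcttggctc
Tpm1: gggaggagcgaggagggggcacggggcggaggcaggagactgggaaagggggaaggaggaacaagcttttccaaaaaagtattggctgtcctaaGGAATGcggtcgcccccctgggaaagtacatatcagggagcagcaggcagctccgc
Tnnc1: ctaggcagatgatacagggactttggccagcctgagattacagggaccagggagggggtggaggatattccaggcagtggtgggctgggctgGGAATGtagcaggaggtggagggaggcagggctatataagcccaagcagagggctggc
Tnni3: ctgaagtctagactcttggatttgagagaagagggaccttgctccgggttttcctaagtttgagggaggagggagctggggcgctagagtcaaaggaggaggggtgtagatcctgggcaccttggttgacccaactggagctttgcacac

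Among the 9 genes, the MCAT letters were found on either strand within 250 bases before a start in Tnnt2, Tpm1 and Tnnc1, and in 12.6% of 32851 RefSeq promoter windows of that length. The genes with the letters did not share a direction, since Tnnt2 and Tpm1 rose and Tnnc1 had a log2 fold change of -0.20 that did not pass. The SOX letters AACAAT were found upstream of Tpm3 among the 9 genes, and in 9.42% of all windows. The GATA letters AGATAA were found upstream of Tnnt2 and Tpm3 (9.99% of all windows) and the E-box CAGCTG upstream of Tnni1, Tnnt2, Tpm2 and Tpm3 (13.0% of all windows). The NKX2 letters AAGTG were found upstream of Tnni1, Tpm3 and Tpm4 (40.7%) and a TATA box upstream of Tnnt1 (12.4%). The CArG box (1.47%) and the MEF2 motif (2.92%) were found upstream of 0 of the 9 genes. These genes had 12 windows, so some had more than a single window, whereas the percentages count single windows. A match describes these letters in this window and is not a binding site.

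In the troponin T family, the cardiac gene Tnnt2 was higher in Sox7-null tubes. Tnnt2 had 24463 and 25056 reads in Sox7-null 1 and Sox7-null 2, against 13123 in the wild type, or 1814 and 1817 CPM against 989 CPM. The Sox7-null libraries were almost equal and did not overlap the wild type. The log2 fold change was 0.88 ± 0.14 (SE; 95% interval 0.57 to 1.18), 1.84-fold, with an adjusted p of 0.00145 in edgeR. The trend-removed value was 1.07, with an edgeR adjusted p of 4.87e-05. Tnnt2 was also the only one of the 9 genes that DESeq2 called. When every gene with at least 1 read was tested, its edgeR adjusted p was 0.122 and no gene passed.

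Tnnt1, the slow skeletal troponin T, was a small part of the family. It had 85.0 and 71.8 CPM in Sox7-null tubes, against 61.4 CPM in the wild type. The Sox7-null libraries were both above the wild type, but the log2 fold change of 0.35 ± 0.20 (SE) did not pass (edgeR adjusted p = 0.241). Its trend-removed value was 0.64, which passed at an edgeR adjusted p of 0.0245. Within the family, Tnnt1 had 4.68 and 3.95 reads per 100 Tnnt2 reads in Sox7-null tubes, against 6.21 in the wild type. On the log2 scale this ratio was 0.41 (Sox7-null 1) and 0.65 (Sox7-null 2) lower than in the wild type, with counting intervals of -0.54 to -0.27 and -0.79 to -0.52. Tnnt2 thus held 95.5% and 96.2% of troponin T reads in Sox7-null tubes and 94.2% in the wild type.

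Both troponin I genes were lower in Sox7-null tubes, and the cardiac gene Tnni3 passed the test. Tnni3 had 6330 and 6457 reads in Sox7-null tubes, against 8829 in the wild type, or 469 and 468 CPM against 665 CPM. The Sox7-null libraries were nearly alike and below the wild type. The log2 fold change was -0.51 ± 0.15 (SE; 95% interval -0.83 to -0.18; edgeR adjusted p = 0.0308). The call depended on the model. Trend removal brought the estimate for Tnni3 to -0.21 (edgeR adjusted p = 0.453), and DESeq2 gave -0.50 with an adjusted p of 0.0744. In the annotation, 4.17% of the exon bases of Tnni3 overlap Dnaaf3 on the same strand.

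Tnni1, the embryonic and slow skeletal troponin I, had 18126 and 20153 reads in Sox7-null tubes, against 23123 in the wild type, or 1344 and 1462 CPM against 1743 CPM. Both Sox7-null libraries lay below the wild type, and the log2 fold change of -0.31 ± 0.14 (SE; 95% interval -0.61 to -0.02) did not pass (edgeR adjusted p = 0.119). The balance between the 2 troponin I genes differed little. Tnni3 made up 25.9% of their reads in Sox7-null 1 (exact 95% binomial interval 25.3% to 26.4%), 24.3% in Sox7-null 2 (23.8% to 24.8%) and 27.6% in the wild type (27.1% to 28.1%). Tnni1 was thus the more abundant of the pair in every library. The log2 ratio of Tnni3 to Tnni1 was 0.13 and 0.25 lower in Sox7-null 1 and Sox7-null 2 than in the wild type, and the mean difference of -0.19 was -0.087 after trend removal. Intervals on shares and ratios cover counting error only, and not the spread between tubes. The reads carry no molecular identifiers and may be copies of 1 molecule, so the counting error itself may be understated.

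Tnnc1, which encodes the troponin C of cardiac and slow skeletal muscle, had 1240 and 1552 CPM in Sox7-null tubes, against 1607 CPM in the wild type. Sox7-null 1 was low and Sox7-null 2 lay near the wild type, with log2 differences of -0.37 and -0.05. The log2 fold change was -0.20 ± 0.15 (SE; 95% interval -0.54 to 0.13) and did not pass (edgeR adjusted p = 0.378). After trend removal its sign turned, to 0.25 with an edgeR adjusted p of 0.376. Tnnc1 is the shortest of the 9 transcripts at 721 bases.

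**Figure D2:**
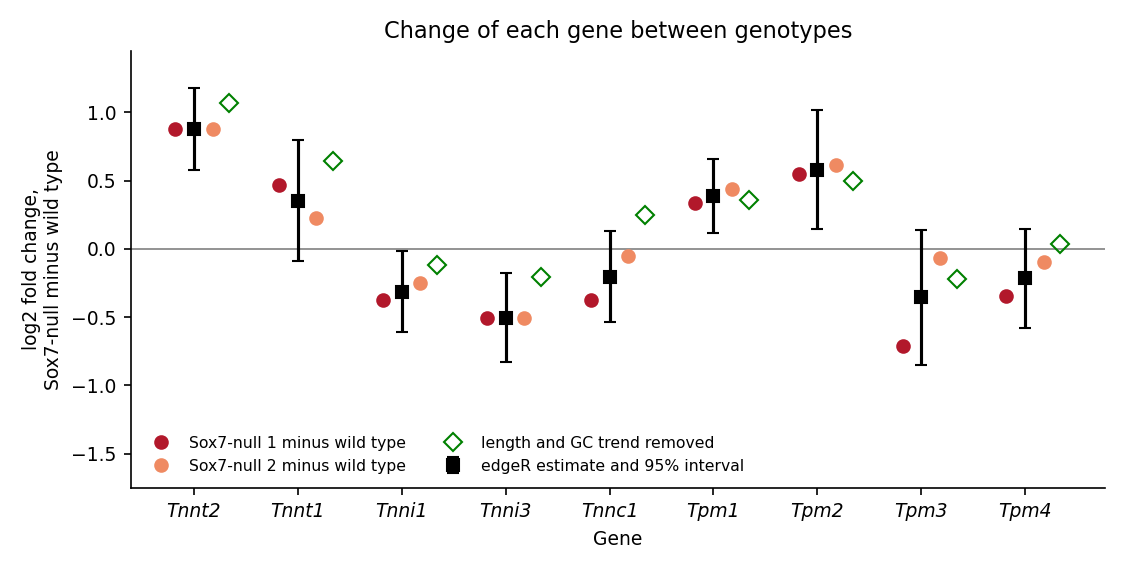
Log2 fold change of Sox7-null over wild type for each gene, with the edgeR estimate and its 95% interval (black), the difference of each Sox7-null library from the wild type (red and orange) and the trend-removed estimate (green diamonds). Tnnt2 is the highest estimate at 0.88 and Tnni3 the lowest at -0.51, and the trend-removed value of Tnnc1 lies on the other side of 0 from its estimate.

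Of the 11 ratios examined, the largest mean differences lay between troponin subunits and not within a subunit family. For every 100 Tnnt2 reads, Sox7-null tubes had 74.1 and 80.4 Tnni1 reads, against 176 in the wild type. Tnni1 reads outnumbered those of Tnnt2 in the wild type and were fewer than those of Tnnt2 in both Sox7-null libraries. The log2 ratio was 1.25 and 1.13 lower in Sox7-null 1 and Sox7-null 2, a mean of -1.19 ± 0.08 (SD, n = 2), and was -1.19 after trend removal too. The transcripts used for these genes are of similar length, 1200 and 1150 bases.

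The other troponin subunits were also lower against Tnnt2. Tnni3 had 25.9 and 25.8 reads per 100 Tnnt2 reads in Sox7-null tubes, against 67.3 in the wild type, a mean log2 difference of -1.38 (-1.28 with the trend removed). Tnnc1 had 68.4 and 85.4 reads per 100 Tnnt2 reads in Sox7-null tubes, against 163 in the wild type, a mean log2 difference of -1.09 ± 0.23 (SD, n = 2; -0.82 with the trend removed). Between the subunits other than troponin T the shifts were smaller. The log2 ratio of Tnnc1 to Tnni1 differed from the wild type by 0.0009 in Sox7-null 1 and by 0.20 in Sox7-null 2. That of Tnni3 to Tnnc1 differed by -0.13 and -0.46. With 2 libraries against 1 an exact permutation test of a ratio cannot reach significance, so the ratios are given without a test.

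Per transcript length the subunits stood closer to each other in Sox7-null tubes. Troponin I genes summed to 1.06 and 1.13 times troponin T in Sox7-null tubes and to 2.54 times troponin T in the wild type, in CPM per kilobase. Tnnc1 stood at 1.08 and 1.36 times troponin T in Sox7-null tubes and at 2.53 times in the wild type. The 4 tropomyosins together were at 0.906 and 1.01 times troponin T in Sox7-null tubes and 1.44 times in the wild type. These ratios rest on 1 transcript length per gene, so their distance from 1 depends on that choice. The read ratios between single genes, compared across libraries, do not.

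**Figure D3:**
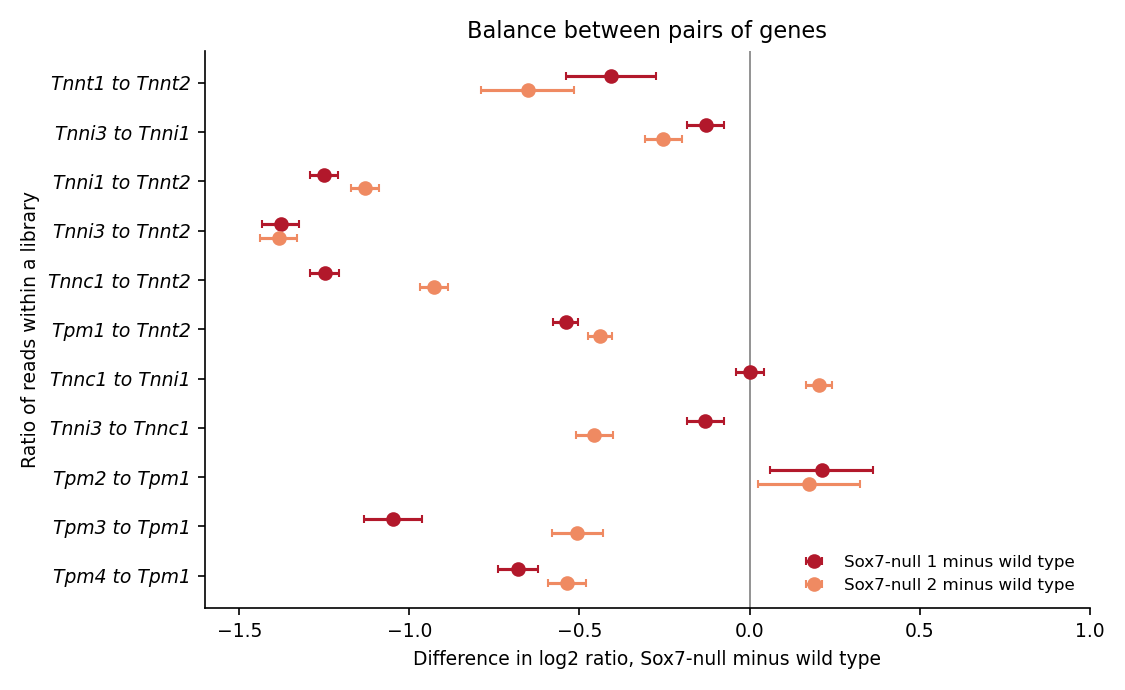
Difference from the wild type in the log2 ratio of reads between pairs of genes, for Sox7-null 1 (red) and Sox7-null 2 (orange), with 95% counting intervals. The ratios of Tnni1, Tnni3 and Tnnc1 to Tnnt2 lie between -1.38 and -0.93, while Tnni3 to Tnni1 lies at -0.13 and -0.25.

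Tpm1, the tropomyosin of cardiac and fast skeletal fibres, was the most abundant of the 9 genes by reads and was higher in Sox7-null tubes. It had 46305 and 50858 reads in Sox7-null 1 and Sox7-null 2, against 36126 in the wild type, or 3433 and 3688 CPM against 2723 CPM. The Sox7-null libraries did not overlap the wild type, and the gap between them and the wild type exceeded the gap between them. The log2 fold change was 0.39 ± 0.12 (SE; 95% interval 0.12 to 0.66), 1.31-fold, with an edgeR adjusted p of 0.0429. The size held but the call was lost in some models: the trend-removed value was 0.36 (edgeR adjusted p = 0.169) and 0.39 in DESeq2 (adjusted p = 0.176). The fold change of Tpm1 was smaller than that of Tnnt2, and the log2 ratio of Tpm1 to Tnnt2 was 0.54 and 0.44 lower in Sox7-null 1 and Sox7-null 2 than in the wild type.

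Tpm2, the beta tropomyosin of slow skeletal and smooth muscle, was the least abundant tropomyosin. It had 882 and 944 reads in Sox7-null tubes, against 594 in the wild type, or 65.4 and 68.5 CPM against 44.8 CPM. Both Sox7-null libraries were above the wild type and close to each other. The log2 fold change of 0.58 ± 0.20 (SE; 95% interval 0.14 to 1.02) was larger than that of Tpm1 but did not pass (edgeR adjusted p = 0.0581).

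Tpm3 and Tpm4, the tropomyosin genes also active in nonmuscle cells, did not pass and had lower estimates. Tpm4 had 343 and 407 CPM in Sox7-null tubes, against 436 CPM in the wild type. Its log2 estimate of -0.22 ± 0.17 (SE) had an edgeR adjusted p of 0.386 and became 0.04 once the trend was removed. Tpm3 had 139 CPM in Sox7-null 1 and 217 CPM in Sox7-null 2, against 228 CPM in the wild type. Sox7-null 1 alone was low, and the Sox7-null libraries differed from each other by 0.64 on the log2 scale, more than the fitted change of -0.35 ± 0.23 (SE; edgeR adjusted p = 0.294).

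Reads of Tpm3 are uncertain, because a copy of its coding sequence lies elsewhere in the genome. In the GENCODE M21 transcripts, 62.4% of the 50-base windows of Tpm3 occur unchanged in another gene, mostly Tpm3-rs7 on chromosome 14, and 16.1% of those of Tpm4 do, mostly in Gm7809. The other 7 genes had none. A 60-base stretch of coding sequence (bases 400 to 459 of Tpm3, 289 to 348 of Tpm3-rs7, Tpm1 and Tpm4, and 397 to 456 of Tpm2, counted from the first base of the longest open reading frame) shows which genes a read could be shared between. Capitals mark bases that differ from Tpm3.
Tpm3: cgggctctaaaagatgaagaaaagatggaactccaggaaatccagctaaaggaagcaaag
Tpm3-rs7: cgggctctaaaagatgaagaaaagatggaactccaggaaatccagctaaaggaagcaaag
Tpm1: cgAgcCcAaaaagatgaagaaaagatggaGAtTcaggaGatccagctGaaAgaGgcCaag
Tpm2: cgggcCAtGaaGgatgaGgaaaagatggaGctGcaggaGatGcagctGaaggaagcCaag
Tpm4: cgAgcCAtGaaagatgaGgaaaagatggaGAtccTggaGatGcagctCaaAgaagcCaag

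Tpm3 and Tpm3-rs7 had 0 differences in this stretch, whereas Tpm1 and Tpm2 differed from Tpm3 at 11 bases and Tpm4 at 13. The share of reads that did not align uniquely was 10.4% and 11.6% in Sox7-null 1 and Sox7-null 2 and 22.3% in the wild type. The part of that difference in the Tpm3 and Tpm4 values was not tested. Over aligned coding sequences, counting only columns without a gap, the tropomyosins were 72.2% to 75.2% identical, Tnnt1 and Tnnt2 69.9% and Tnni1 and Tnni3 68.5%. Over all columns, gaps included, the values were 61.7% to 74.3%, 55.1% and 54.7%. The reading frames came from the longest coding transcript of each gene and differ in length. Those of Tpm1 and Tpm4 had 738 and 747 bases, and those of Tpm2 and Tpm3 had 855 and 858. The identities may therefore compare unlike splice forms.

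The tropomyosin balance tilted toward Tpm1 in Sox7-null tubes. Tpm1 held 86.3% and 84.2% of tropomyosin reads in Sox7-null tubes and 79.4% in the wild type. Tpm4 held 8.61% and 9.29% in Sox7-null tubes and 12.7% in the wild type, and Tpm3 held 3.49% and 4.96% against 6.64%. Tpm2 was the exception, at 1.64% and 1.56% in Sox7-null tubes and 1.31% in the wild type. The log2 ratio of Tpm3 to Tpm1 was 1.05 and 0.51 lower in Sox7-null 1 and Sox7-null 2 than in the wild type, and that of Tpm4 to Tpm1 was 0.68 and 0.54 lower. In trend-removed values, the mean log2 difference of Tpm4 to Tpm1 was -0.33 in place of -0.61, and that of Tpm3 to Tpm1 was -0.58 in place of -0.78.

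**Figure D4:**
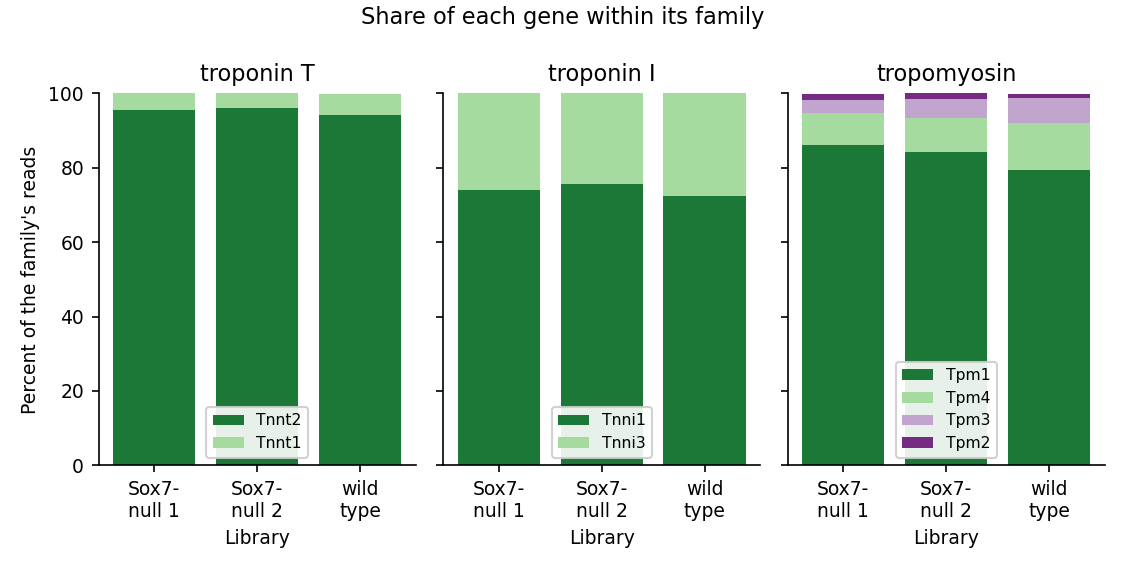
Share of each gene in the reads of its family, in percent, with 1 bar a library and both Sox7-null libraries left of the wild type. Tpm1 takes 86.3% and 84.2% of tropomyosin reads in Sox7-null tubes and 79.4% in the wild type, while the troponin I split differs by a few percentage points.

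The order of the genes by level also differed between genotypes. In CPM per kilobase of the longest coding transcript, Tnnc1 was highest in every library, at 1720 and 2152 in Sox7-null tubes and 2229 in the wild type. Tnnt2 came next in Sox7-null tubes at 1511 and 1514, and was below Tnni1 and Tpm1 in the wild type at 824. Tpm1 (1188 and 1276) and Tnni1 (1169 and 1271) could not be ordered in Sox7-null tubes, where their values overlapped, whereas the wild type had 942 for Tpm1 and 1516 for Tnni1. Below these came Tnni3 and Tpm4 in every library. Tpm3 (62.3 and 97.3 in Sox7-null tubes, 102 in the wild type) and Tnnt1 (80.2 and 67.8 in Sox7-null tubes, 58.0 in the wild type) overlapped in Sox7-null tubes, and Tpm2 was lowest at 30.1 and 31.5 in Sox7-null tubes and 20.6 in the wild type. With exons merged over all transcripts, Tnnt2 measures 7752 bases in place of 1200 and stood below Tpm1 and Tnni1 in all libraries. Its rank thus depends on the length used, but its change in CPM between genotypes does not. The trend-removed values do rest on a length, 1200 bases for Tnnt2, and were not fitted with merged exons.

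Set against 18 thick filament, titin and Z-disc genes, most of the 9 genes were low in Sox7-null tubes. The mean log2 change of those 18 genes was subtracted in each Sox7-null library. Tnni3 then lay at -1.27 and -0.98 in Sox7-null 1 and Sox7-null 2, Tnni1 at -1.14 and -0.73, and Tnnc1 at -1.14 and -0.52. Tnnt2 lay at 0.11 and 0.40, the one gene above the sarcomere mean in both libraries. Tpm1 lay at -0.43 and -0.04, and Tpm2 at -0.22 and 0.14, on both sides of 0. The comparison is with the mean of the list, whose genes ranged widely. Myh7 had a log2 fold change of 2.20, while Myl2 (-0.57) and Myoz2 (-0.77) lay below all 3 of these troponin genes. Myom2 stood at 2.82 on only 12 and 4 reads in Sox7-null tubes and 1 in the wild type. It weighed in the mean as much as any other gene, and a mean without it was not taken. Values near 0, such as that of Tpm1 in Sox7-null 2, may depend on it. After trend removal the mean differences were -0.76 for Tnni3, -0.67 for Tnni1, -0.30 for Tnnc1 (in place of -0.83) and 0.52 for Tnnt2 (in place of 0.26), and that of Tnnt1 turned to 0.088 (in place of -0.27). These are descriptions with 2 values a gene and no test.

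Among other thin filament genes, several rose in Sox7-null tubes. Of 19 tested actin, capping and length-regulating genes, 7 rose and 0 fell, with a median log2 fold change of 0.51, beside 11.3% higher and 10.2% lower among all tested genes, the background for every list below. Both Sox7-null libraries lay below the wild type for 5 of the 19 (Capza1, Capza2, Tmod2, Cfl2 and Neb). Lmod3, a leiomodin that nucleates actin filaments, rose by 1.24 ± 0.22 (SE; edgeR adjusted p = 0.00275), and Tmod1, which caps the pointed end of the filament together with tropomyosin, by 1.08 ± 0.20 (adjusted p = 0.00299). Nebl, a nebulin-family protein of the Z-disc, rose by 1.18 ± 0.20 (edgeR adjusted p = 0.00185), and Xirp1, an actin-binding repeat protein, by 1.21 ± 0.20 (adjusted p = 0.00166; trend-removed value 0.65). The main actin of the heart, Actc1, had 13726 and 13434 CPM in Sox7-null tubes and 9931 CPM in the wild type, a log2 fold change of 0.45 that passed in edgeR (adjusted p = 0.00727) but not in DESeq2 (adjusted p = 0.0912). Among the thick filament, titin and Z-disc genes 8 of 18 rose and 1 fell, with a median of 0.47. The myosin heavy chain gene Myh7 (2.20), the ankyrin repeat gene Ankrd1 (1.24) and the alpha-actinin gene Actn2 (1.12) had the smallest p among those that rose, and Myl2, a myosin regulatory light chain gene, fell by 0.57 on the log2 scale. After trend removal, 7 thin filament genes rose, with Lmod2 in place of Cap2, but only 3 thick filament, titin and Z-disc genes did and Myl2 no longer passed, at -0.07 with an edgeR adjusted p of 0.837.

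**Figure D5:**
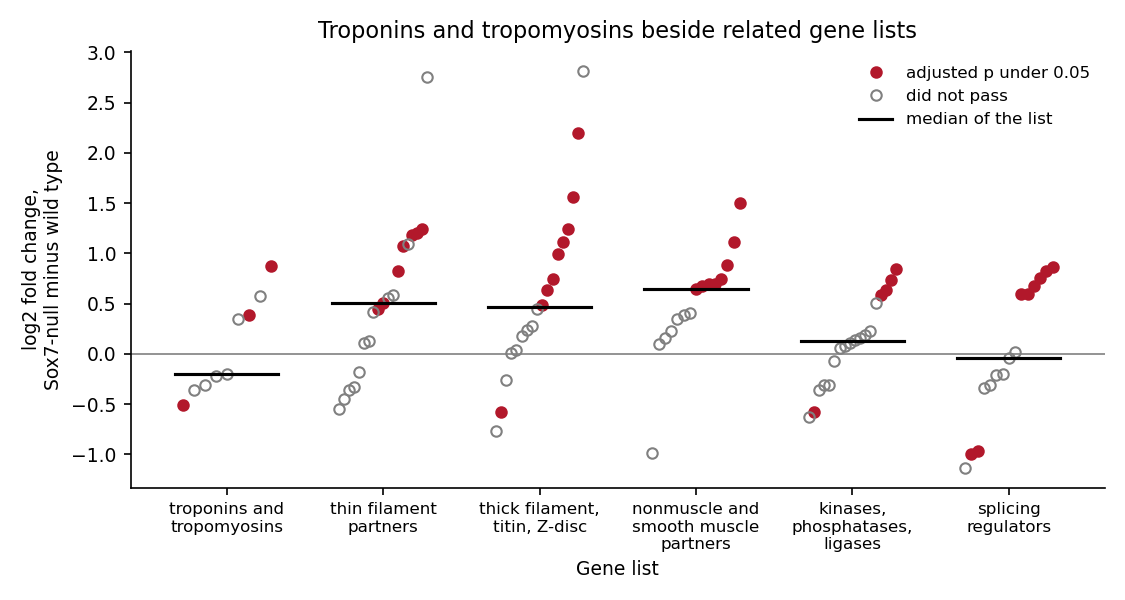
Log2 fold change of Sox7-null over wild type for each tested gene of 6 lists, filled where the edgeR adjusted p was under 0.05, with a black line at the median of each list. The median is -0.20 for troponins and tropomyosins, and 0.51 and 0.47 for the thin filament partners and for the thick filament, titin and Z-disc genes.

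Genes for proteins that work with tropomyosin outside the sarcomere were often higher too. Of 15 nonmuscle and smooth muscle partners, 8 rose and 0 fell, with a median log2 fold change of 0.64. After trend removal 7 rose and 0 fell, with a median of 0.45. Actb then passed, while Myh10 and Flna no longer did. The nonmuscle myosin heavy chain gene Myh9 rose to 135 and 107 CPM in Sox7-null tubes, against 42.7 CPM in the wild type (edgeR adjusted p = 0.00102; trend-removed log2 fold change 0.88), and the calponin gene Cnn1 rose by 1.11 ± 0.19 on the log2 scale (adjusted p = 0.0022). Transgelin genes rose as well, with Tagln2 at 0.88 and Tagln at 0.69. The smooth muscle marker list summed to 5852 and 7411 CPM in Sox7-null tubes and to 4980 CPM in the wild type. Acta2 gave 3256 and 4545 CPM of these sums in Sox7-null tubes and 3321 CPM in the wild type. Tagln gave 1514 and 1818 CPM against 1031 CPM. Of the 8 markers, Cnn1, Tagln and Des rose and 0 fell. The trend-removed value of Des was 0.43 and did not pass (edgeR adjusted p = 0.0985). Myh11 had 19 and 34 reads in Sox7-null tubes, on both sides of the 22 in the wild type. Mesenchyme and cushion markers summed to 1714 and 1296 CPM in Sox7-null tubes and 928 CPM in the wild type, of which Vcan alone gave 1508 and 1143 CPM in Sox7-null tubes and 727 CPM in the wild type. Of the 9 mesenchyme markers Vcan and Col1a1 rose and Twist1, Sox9 and Msx1 fell, with a median of -0.52. These calls held after trend removal, where Prrx1 fell too, but in DESeq2 only Vcan rose and only Sox9 fell. The part of these cells in the Tpm1, Tpm2 and Tpm4 values was not tested.

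Regulators of troponin and tropomyosin passed the test in both directions, and most of their calls depended on the model. Of 18 kinases, phosphatases and ligases that act on these proteins, 4 rose and 1 fell, with a median of 0.12. Dapk3 rose by 0.84 ± 0.21 (SE; edgeR adjusted p = 0.0134), Prkca, a protein kinase C that phosphorylates troponin I and troponin T, by 0.73 (adjusted p = 0.0415), Prkg1 by 0.63 and Rock2 by 0.58. Ppp1ca, a catalytic subunit of protein phosphatase 1, fell by 0.58 ± 0.16 (SE; edgeR adjusted p = 0.0249). Prkaca, the catalytic subunit of the protein kinase A that phosphorylates Tnni3, lay at -0.07 on the log2 scale without passing. In trend-removed values, Dapk3 and Trim63 rose and Ppp1ca and Ppp2ca fell. In DESeq2 only Dapk3 passed, and Ppp1ca had an adjusted p of 0.0518.

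Splicing regulators of striated muscle transcripts were likewise split, with 6 of 15 higher, 2 lower and a median of -0.04. After trend removal 2 were higher and 3 lower, with a median of -0.27: Celf2, Rbfox2, Rbm20 and Qk no longer passed and Ptbp1 did. Mbnl1, a muscleblind protein that acts on an alternative exon of Tnnt2, had 52.5 and 58.7 CPM in Sox7-null tubes, against 111 CPM in the wild type, and fell by 1.00 ± 0.19 on the log2 scale (SE; edgeR adjusted p = 0.00349). Its paralogue Mbnl2 rose by 0.86 ± 0.23 (SE; edgeR adjusted p = 0.0179). Srsf1 fell by 0.96 ± 0.19 (SE; adjusted p = 0.00485 in edgeR), and Rbm24, an RNA-binding protein of striated muscle, rose by 0.75 ± 0.17 (adjusted p = 0.00856). The calls of Mbnl1, Mbnl2, Srsf1 and Rbm24 held after trend removal and in DESeq2. The counts per gene hold no exon values, so splicing of Tnnt2 or the tropomyosins was not analysed here.

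Fast skeletal troponins were sparse. Tnni2 had 557 and 501 reads in Sox7-null tubes, against 318 in the wild type, and rose by 0.70 ± 0.22 on the log2 scale (SE; edgeR adjusted p = 0.0408; DESeq2 adjusted p = 0.119). Tnnt3 had 71 and 156 reads in Sox7-null tubes, on both sides of the 110 in the wild type, and Tnnc2 had 13 and 13 reads in Sox7-null tubes and 23 in the wild type. The troponin T and troponin I genes lie in pairs in the genome. In RefSeq gene order Tnni1 and Tnnt2 are separated by Lad1, and Tnnt1 lies next to Tnni3. In these pairs the troponin T gene had the higher log2 fold change, 0.88 for Tnnt2 beside -0.31 for Tnni1 and 0.35 for Tnnt1 beside -0.51 for Tnni3. In the fast skeletal pair, Tnni2 and Tnnt3 with Lsp1 between them, the order was the other way round, 0.0008 for Tnnt3 beside 0.70 for Tnni2. Lad1 between Tnni1 and Tnnt2 had a log2 fold change of 0.70 that did not pass (edgeR adjusted p = 0.26).

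After trend removal, 2 of the 9 genes (Tnnt2 and Tnnt1) were higher and 0 lower, beside 9.70% and 10.1% of 13223 genes, and the median of the 9 genes was 0.25. In DESeq2 1 was higher and 0 lower, beside 8.80% and 6.24% of 11009 genes. The 5 troponin transcripts, of 721 to 1200 bases, were all among the shortest 25% of tested genes, up to 2020 bases, and the tropomyosin transcripts had 2128 to 2890 bases. The part of the length trend in the values of Tnni1, Tnni3 and Tnnc1 was not tested. Endothelial and endocardial markers summed to 577 and 557 CPM in Sox7-null tubes and 542 CPM in the wild type. In the main edgeR fit, Pecam1 (1.07), Flt1 (0.88) and Tie1 (0.83) rose and Tek (-0.91) and Npr3 (-0.62) fell among 11 markers. After trend removal Pecam1 and Emcn rose, Tek and Npr3 fell, and Flt1 and Tie1 no longer passed. In DESeq2 only Pecam1 rose and only Tek fell. Other markers differed more between the libraries: platelet markers summed to 370 and 224 CPM in Sox7-null tubes and 60.6 CPM in the wild type, foregut and liver markers to 2.97 and 4.06 CPM against 51.6 CPM, and erythroid markers to 4546 and 14470 CPM against 14020 CPM. The part of these cells was not tested, and the summed levels of the 9 genes were 8932 and 9752 CPM in Sox7-null tubes and 8497 CPM in the wild type.

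The genes whose pattern was most like that of Tnnt2 were Rexo1, Enc1, Setd7, Polr1a and Diap1, with distances of 0.021 to 0.034 between their 2 log2 differences and those of Tnnt2. Likeness was measured over 2 differences that share the wild-type library, among 10277 genes. Of these, 56 lay within a distance of 0.1, so the named genes are not set apart from many others.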

How the data were processed

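Total RNA from 3 heart tubes was sequenced from stranded total RNA libraries, per the labels' protocols. The authors deposited 1 unpooled file a library, which gives a whole-number count of reads for each gene symbol. CASAVA, TopHat2, HTSeq and DESeq2 1.10.1 are named in the submitters' processing notes, with the human builds hg19 and GRCh37. Since the symbols are murine, the true build is unsettled. Annotation and strand setting: not given in the sources used here, so overlapping and antisense genes cannot be separated. Lines that name no gene were dropped. Their shares of each file were 8.10% and 8.52% (Sox7-null) and 11.7% (wild type) without a feature, 2.27% and 2.29% (Sox7-null) and 1.97% (wild type) ambiguous, and 10.4% and 11.6% (Sox7-null) and 22.3% (wild type) not unique. All libraries differed beyond sampling noise, with a chi-square over genes of 19.6 per degree of freedom for the Sox7-null pair and 117 and 70.6 for each of them against the wild type.

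Counts were tested with edgeR 4.0.16 (glmQLFit, glmQLFTest, TMM, filterByExpr with a minimum count of 10) in R 4.3.3 with genotype as the term. The filter kept 13334 genes, over which p-values were adjusted by Benjamini-Hochberg, with a threshold of 0.05. There was 1 residual degree of freedom beside 11.8 prior ones, which takes the single wild-type library to be as variable as the Sox7-null ones. Alternatives were other scalings and filters, limma-voom (limma 3.58.1), DESeq2 1.42.0, a length and GC trend removed as an offset, and each Sox7-null library left out. The fit was tested on simulated data. Lengths, shared 50-base windows and coding sequences are from GENCODE M21, promoters from RefSeq GRCm38.p6, and all 9 genes matched both. The 9 genes and all lists were chosen with earlier results of these data known. The genes named are the 9, up to 4 per list by smallest p, members that the description of a list needs, and the 5 most like Tnnt2 by Euclidean distance of 2 log2 CPM differences at a mean of at least 5 CPM.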

Additional observations from a re-analysis of the deposited data

How the results depend on the processing

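Over the 10 fits, Tnnt2 passed in 9 and Tnni3 and Tpm1 in 7. Testing every gene with at least 1 read gave 0 calls in edgeR in either direction and so 0 of the 9 genes, although 4113 genes had an unadjusted p under 0.05; Tnnt2 then had 0.89 with an adjusted p of 0.122. DESeq2 called 969 genes higher and 687 lower, and among the 9 genes 1 higher and 0 lower. Removing the length and GC trend left 0 of the 9 lower. Scaling by library totals called 1985 genes higher and 1214 lower, moved the median of all genes to 0.10, and passed Tpm2 (0.66, adjusted p = 0.0245), as did upper quartile scaling (0.59, adjusted p = 0.0488). Alternatives chosen after seeing the data removed the length and GC trend from ratios and from differences to the sarcomere genes. The ratios were -0.087 for Tnni3 to Tnni1, -1.28 for Tnni3 to Tnnt2, -0.82 for Tnnc1 to Tnnt2, -0.71 for Tpm1 to Tnnt2, 0.37 for Tnnc1 to Tnni1, 0.14 for Tpm2 to Tpm1 and -0.33 for Tpm4 to Tpm1. Against the sarcomere genes, Tnnt1 was at -0.16 with cardiomyocyte markers and -0.32 with the median as the base, and Tpm2 at 0.070 with cardiomyocyte markers and between -0.22 and 0.14 with a Sox7-null library left out. Trend removal gave 0.52 for Tnnt2, 0.088 for Tnnt1 (turned in sign), -0.76 for Tnni3 and -0.30 for Tnnc1. The cause of these differences was not tested. No paired analysis was possible because the groups share no replicate numbers. With 1 wild-type library, nothing here measures how wild-type tubes vary. Few reads limit the values of Tnnc2 and Tnnt3.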
